A study of Mus musculus with 13 samples.

Results

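The genes described here are 10 genes of cartilage and joint formation: Sox5, Sox6, Runx2, Runx3, Col2a1, Acan, Gdf5, Nog, Bmpr1b and Wwp2, chosen by name from 21938 protein-coding genes. Each was taken with its body and 50 kb on either side in GENCODE release M21 on mouse build mm10, and every called peak with its summit in those windows was kept. The windows cover 3449 kb, or 0.127% of the genome, and hold 70 of the 43533 CTCF peaks of wild-type whole limbs. Over all 11 peak lists they hold 155 separate bound regions, of which 141 carry a CTCF peak in at least 1 list and 60 a RAD21 or SMC1 peak.

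In the limb bud, mesenchymal cells condense and become chondrocytes under Sox9, with Sox5 and Sox6 as its partners, and then lay down a matrix rich in type II collagen and aggrecan. Runx2 and Runx3 drive the later maturation of chondrocytes, while Gdf5 marks the interzones where joints form and signals through Bmpr1b, and Nog holds BMP signalling in check there. CTCF binds DNA through zinc fingers at a motif that has a direction, and cohesin, of which RAD21 and SMC1 are subunits, encircles chromatin, extrudes it as loops and halts at bound CTCF.

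Peak lists came from chromatin immunoprecipitation of mouse limb tissue at E12.5, and the study deleted parts of the HoxD cluster to ask what sets the chromatin domain boundary there. Homozygotes for del(8-13)d11lac, for del(attP-Rel5)d9lac or for del(1-13)d9lac are each represented by 1 CTCF list of pooled whole forelimbs and hindlimbs, and del(8-13)rXII homozygotes by CTCF in forelimbs and RAD21 in whole limbs. Wild-type whole limbs of the same strain, B6CBAF1, were profiled for CTCF and RAD21. From wild-type CD1 embryos, distal forelimb was profiled for CTCF, RAD21 and SMC1 and proximal forelimb for CTCF. The labels state that mutants and wild types came from crosses of heterozygous mice. None of the 10 genes is at HoxD: Gdf5 shares chromosome 2 with it, 81.2 Mb away, and the other 9 lie on other chromosomes.

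Each group had 1 library, so no difference between groups has a replicate check, and genotype and library cannot be told apart, nor can strain and tissue between the CD1 and B6CBAF1 lists. The del(8-13)rXII CTCF library stands apart by its label: it was made from forelimbs of 4 E12 embryos by ChIPmentation, a form of the assay that uses a transposase to build the library on the captured chromatin. Its 36116 peaks had a median −log10 q of 7.07, the lowest of the 7 CTCF lists, where the other 6 lists held 41588 to 73682 peaks with medians of 16.1 to 30.9. Fixation lasted 10 minutes for CTCF, 25 for SMC1 and 10 or 25 for RAD21, and the RAD21 library of del(8-13)rXII was sequenced in 2 runs. The −log10 q is the peak caller's measure of how far a peak stands above background; it grows with depth and is read here within a list, not between lists. Depth is unknown from peak lists, so a site with no peak is a site where none was called, and the tissue label could not be checked against marker genes. Intervals given for shares cover counting error only, over sites that are not replicates of a condition.

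In wild-type whole limbs, CTCF peaks of the 10 windows were densest at promoters and sparsest in introns, and introns make up most of the sequence. In wild-type whole limbs 33 of the 70 CTCF peaks were intronic, 15 lay upstream and 15 downstream of the gene, 5 within 1 kb of an annotated transcript start of the gene and 2 in other exons. That is 1.42 peaks per 100 kb of intron, against 3.03 per 100 kb of flank, 6.50 per 100 kb of promoter and 3.48 per 100 kb of exon. RAD21 peaks of wild-type whole limbs were spread in the same order, with 0.688 per 100 kb of intron against 2.63 per 100 kb of flank and 7.80 per 100 kb of promoter. The promoter and exon values rest on 77.0 kb and 57.5 kb of sequence and on 8 peaks or fewer. Densities by class were not counted over the genome, so this order cannot be called particular to the 10 genes. In the del(8-13)rXII CTCF list the promoter density was 2.60 per 100 kb, from 2 peaks, against 2.83 per 100 kb of flank, and introns were sparsest in all 11 lists.

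The strongest CTCF site of each gene in wild-type whole limbs holds a match to the CTCF motif, close at some genes and marginal at others. A matrix of 19 bases was learned from the 2000 strongest whole-limb summits of the genome, of which 8 lie in the 10 windows, and its most frequent bases read GGCCACCAGGGGGCGCCAG. Sites are numbered along the chromosome within each window, and the sequences below are from the RefSeq copy of GRCm38.p6, the assembly of mm10, written 5′ to 3′ on the strand that carries the motif. Capitals mark the 19 bases of the motif match. The set shows the site with the highest −log10 q of each gene in wild-type whole limbs, which is what strongest means for a site below unless another list is named, and then the sites at the 5′ untranslated exons of Runx2 and Bmpr1b, because these anchor the values below.
Sox5 site 17, chr6:144815029-144815067, minus strand: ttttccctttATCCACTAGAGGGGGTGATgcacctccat
Sox6 site 6, chr7:116033088-116033126, minus strand: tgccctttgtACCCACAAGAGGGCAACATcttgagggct
Runx2 site 1, chr17:44455841-44455879, plus strand: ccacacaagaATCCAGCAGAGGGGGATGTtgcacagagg
Runx3 site 2, chr4:135150606-135150644, minus strand: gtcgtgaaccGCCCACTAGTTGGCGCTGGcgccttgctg
Col2a1 site 2, chr15:97964103-97964141, minus strand: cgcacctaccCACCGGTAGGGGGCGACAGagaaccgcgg
Acan site 5, chr7:79141028-79141066, plus strand: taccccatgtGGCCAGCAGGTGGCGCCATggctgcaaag
Gdf5 site 1, chr2:155946276-155946314, minus strand: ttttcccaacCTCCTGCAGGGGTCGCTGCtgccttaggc
Nog site 2, chr11:89303620-89303658, minus strand: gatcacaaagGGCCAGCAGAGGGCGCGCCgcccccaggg
Bmpr1b site 3, chr3:141862970-141863008, plus strand: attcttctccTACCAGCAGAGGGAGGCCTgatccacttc
Wwp2 site 4, chr8:107425121-107425159, minus strand: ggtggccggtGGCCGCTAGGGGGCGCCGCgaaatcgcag
Runx2 site 4, chr17:44736424-44736452, minus strand: ctagcGGCCGGCGGGCGGCGGCAGcggct
Bmpr1b site 7, chr3:142169294-142169322, minus strand: tctgcAGTCACTAGTGGGAGCTGGagagg

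Consensus sites are whole-limb CTCF peaks that overlap both a distal and a proximal forelimb peak in wild type, and 66 of the 70 sites qualify. Among the strongest sites the match scored 24.1 bits at Acan site 5 and 23.7 at Wwp2 site 4, but 10.1 at Runx2 site 1 and 7.64 at Sox5 site 17. The threshold, a score that 5% of control windows 2 kb away pass, was 6.69 bits. A motif match over it lay within 50 bp of the summit at 54 of the 66 consensus sites, where 84.8% of all 39477 consensus sites hold one. The motif pointed along the gene's own strand at 31 of these sites and against it at 23.

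A second set of sequences shares more than the CTCF core. At 10 of the 54 consensus motifs the match contains the letters AGAAGAGGG, read on the motif strand only, and 6 of these 10 lie in or beside Sox5. The remaining 4 are split over Wwp2, with 2, and Gdf5 and Bmpr1b, with 1 each.
Sox5 site 1, chr6:143889094-143889132, minus strand: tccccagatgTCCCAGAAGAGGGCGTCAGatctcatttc
Sox5 site 3, chr6:144271488-144271526, plus strand: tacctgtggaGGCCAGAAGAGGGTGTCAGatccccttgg
Sox5 site 6, chr6:144339728-144339766, plus strand: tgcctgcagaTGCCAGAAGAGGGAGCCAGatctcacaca
Sox5 site 7, chr6:144429467-144429505, minus strand: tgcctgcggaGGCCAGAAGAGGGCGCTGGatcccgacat
Sox5 site 14, chr6:144752338-144752376, minus strand: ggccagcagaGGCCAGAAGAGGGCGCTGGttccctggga
Sox5 site 16, chr6:144804244-144804282, minus strand: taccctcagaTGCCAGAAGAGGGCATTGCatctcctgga
Gdf5 site 2, chr2:155952175-155952213, minus strand: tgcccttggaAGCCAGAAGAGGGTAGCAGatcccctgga
Bmpr1b site 5, chr3:141900536-141900574, minus strand: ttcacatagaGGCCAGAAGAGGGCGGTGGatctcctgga
Wwp2 site 2, chr8:107388044-107388082, plus strand: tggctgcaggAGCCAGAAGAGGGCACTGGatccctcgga
Wwp2 site 5, chr8:107434832-107434870, minus strand: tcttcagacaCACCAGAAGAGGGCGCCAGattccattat

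Of these 10 sites 8 lie wholly in soft-masked letters of the RefSeq sequence, which mark repeats. As background, the B2 family of short interspersed elements of rodents carries a CTCF motif with this word and has spread CTCF sites through the mouse genome; no repeat annotation was used here, so the family of each site was not assigned. The word was chosen after the sequences were seen. It stood in 18.5% of the consensus motifs of the 10 windows, and in 12.2% of the 33473 of the genome. Wholly soft-masked motifs made up 20.4% of the motifs in the windows, 11 of 54, and 16.8% over the genome. The share in the windows is carried by Sox5, with 7 of the 11.

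Sites in soft-masked sequence were weak and lacked RAD21 in wild-type whole limbs. Their median −log10 q in wild-type whole limbs was 6.64, against 34.6 at the 43 motifs not wholly soft-masked. No RAD21 peak of wild-type whole limbs overlapped any of the 11, which allows a share of up to 27.3%, against 33 of the other 43. Over the genome RAD21 lay at 24.1% of the 5618 wholly soft-masked motifs, a share within that limit, and at 66.9% of the others. The strength of the 11 sites alone would give 3.31 of 11 with RAD21, counted from sites of like −log10 q over the genome. Among motifs with the word, Gdf5 site 2 was the single site of 10 with a RAD21 peak, and it is not wholly soft-masked. Over the genome RAD21 lay at 838 of 4096 motifs with the word, or 20.5%, where their strength gives 1616, against 65.2% of the 29377 motifs without it.

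**Figure D1:**
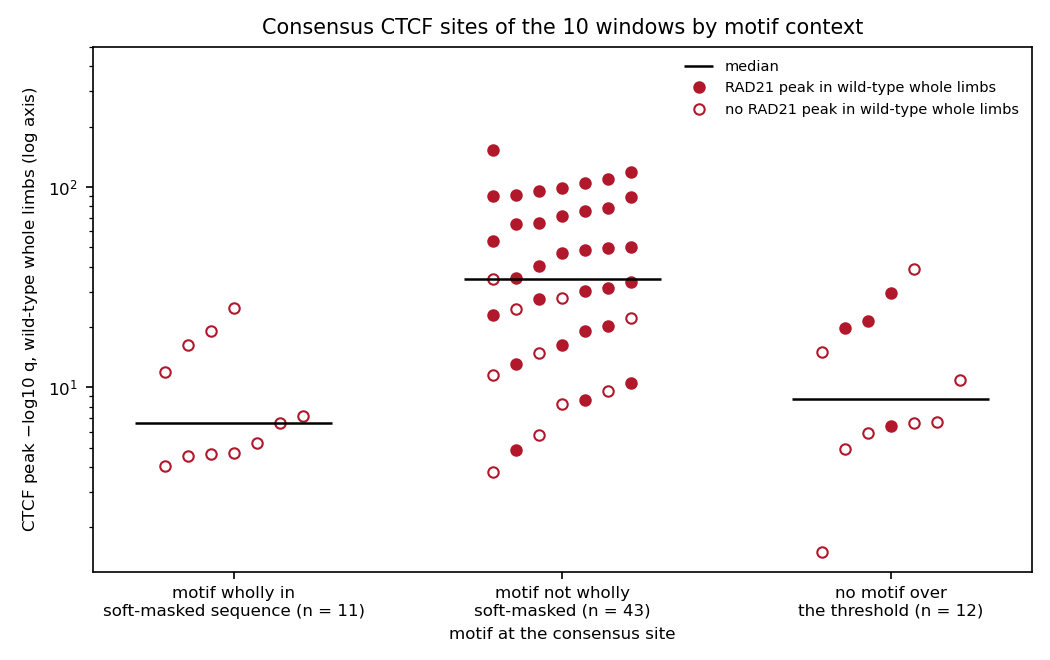
CTCF peak strength (−log10 q in wild-type whole limbs, log axis) of the 66 consensus sites of the 10 windows, split by whether the motif is wholly in soft-masked sequence, not wholly so, or not found. Filled points have a RAD21 peak in wild-type whole limbs: none of the 11 sites in soft-masked sequence is filled, and 33 of the 43 others with a motif are.

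CTCF density varied from gene to gene, and the median of the 10 genes lay between the quartiles of all protein-coding genes. The window of Col2a1 held 5.42 whole-limb CTCF peaks per 100 kb and that of Wwp2 4.50, above the upper quartile of all protein-coding genes, 4.46. Sox6, with 1.05, lay below the lower quartile of 1.37. The median of the 10 genes was 2.42 per 100 kb, against 2.77 for all protein-coding genes, and for RAD21 it was 1.88 against 1.84. Long genes are sparse in general: the 567 protein-coding genes of at least 300 kb had a median of 1.23 with quartiles of 0.743 and 1.91, and Sox5, Runx2 and Bmpr1b, at 1.61, 1.43 and 1.85, fell within those quartiles, as did Sox6.

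**Figure D2:**
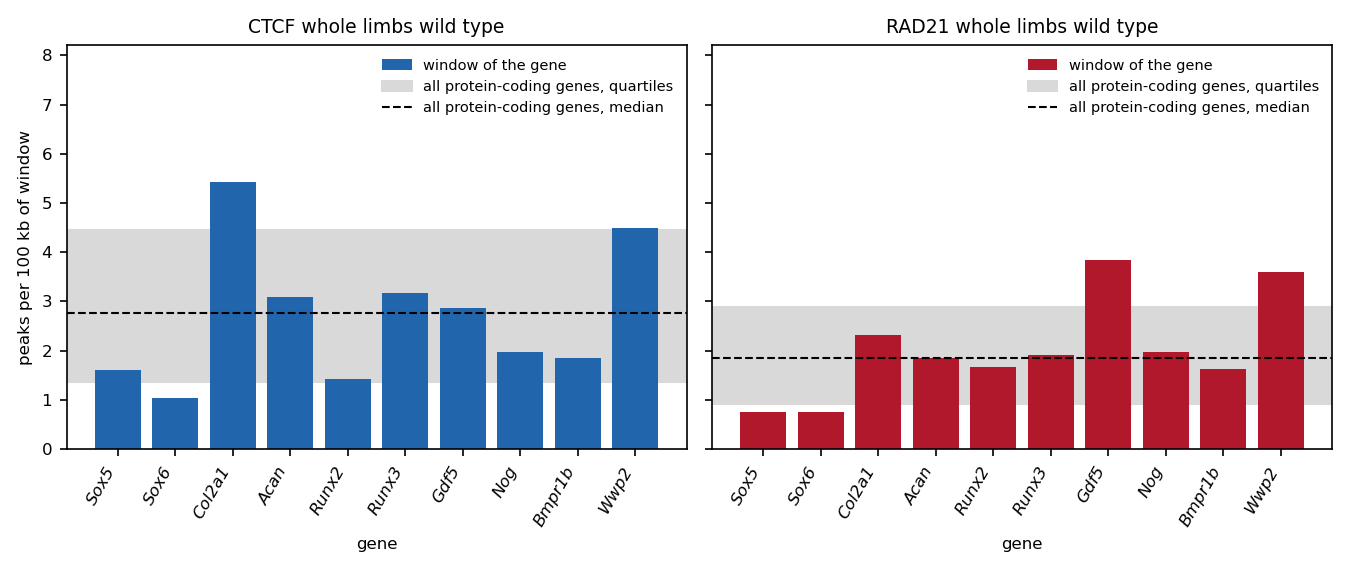
Peaks per 100 kb of window (body and 50 kb each side) for each gene in the wild-type whole-limb CTCF and RAD21 lists, 1 library each. The shaded band and dashed line give the quartiles and median of all protein-coding genes; Col2a1 and Wwp2 stand above the band for CTCF, and Gdf5 and Wwp2 for RAD21.

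The 38 other genes of the cartilage and BMP pathways that were counted had a median of 3.16 CTCF peaks and 2.09 RAD21 peaks per 100 kb. The highest CTCF densities among them were 8.14 per 100 kb at Sp7, which encodes the osteoblast factor osterix, 8.00 at Pth1r, the receptor for parathyroid hormone-related protein, 7.90 at Wnt9a, a joint-forming ligand, and 7.07 at Col11a2, a cartilage collagen. A CTCF peak lay within 1 kb of a transcript start at 6 of the 38 genes, and a RAD21 peak at 8.

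At transcript starts, 5 of the 10 genes had a whole-limb CTCF peak within 1 kb, where 23.6% of all protein-coding genes do. They were Sox6, Col2a1, Runx2, Gdf5 and Bmpr1b. A RAD21 peak lay there at 4 of them, all but Col2a1, where 19.0% of all genes have one. The 10 genes have a median of 7.50 annotated start positions, against 3 for all genes, and at the 5′ end of the gene alone only Gdf5 and Bmpr1b had a CTCF peak within 1 kb, 2 of 10 where 16.7% of all genes do.

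Cohesin followed the strong CTCF sites of the windows. Among whole-limb CTCF peaks, 37 of 70, or 52.9% with a Wilson 95% interval of 41.3 to 64.1%, overlapped a RAD21 peak, where 51.5% of all CTCF peaks do. The CTCF peaks with RAD21 had a median −log10 q of 46.8 and those without 6.67. At a −log10 q of at least 30, 24 of 26 peaks had RAD21, where 85.8% of all such peaks do. The 20 strongest consensus sites each had a RAD21 peak, down to a −log10 q of 40.3, a limit that these sites set, and 88.9% of all consensus sites as strong have one. Of the consensus sites 37 of 66 carried RAD21, against 55.9% of all.

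In the flanks 22 of 30 CTCF peaks had RAD21, and in introns 10 of 33. The flank peaks were stronger, with a median −log10 q of 32.6 against 8.67 in introns, and strength alone gives 20.3 and 13.2 peaks with RAD21. At promoters 4 of 5 peaks had RAD21, with a Wilson interval of 37.6 to 96.4%, where strength alone gives 2.88. Shares with RAD21 by class were not counted over the genome, so none of these counts can be called particular to these genes.

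**Figure D3:**
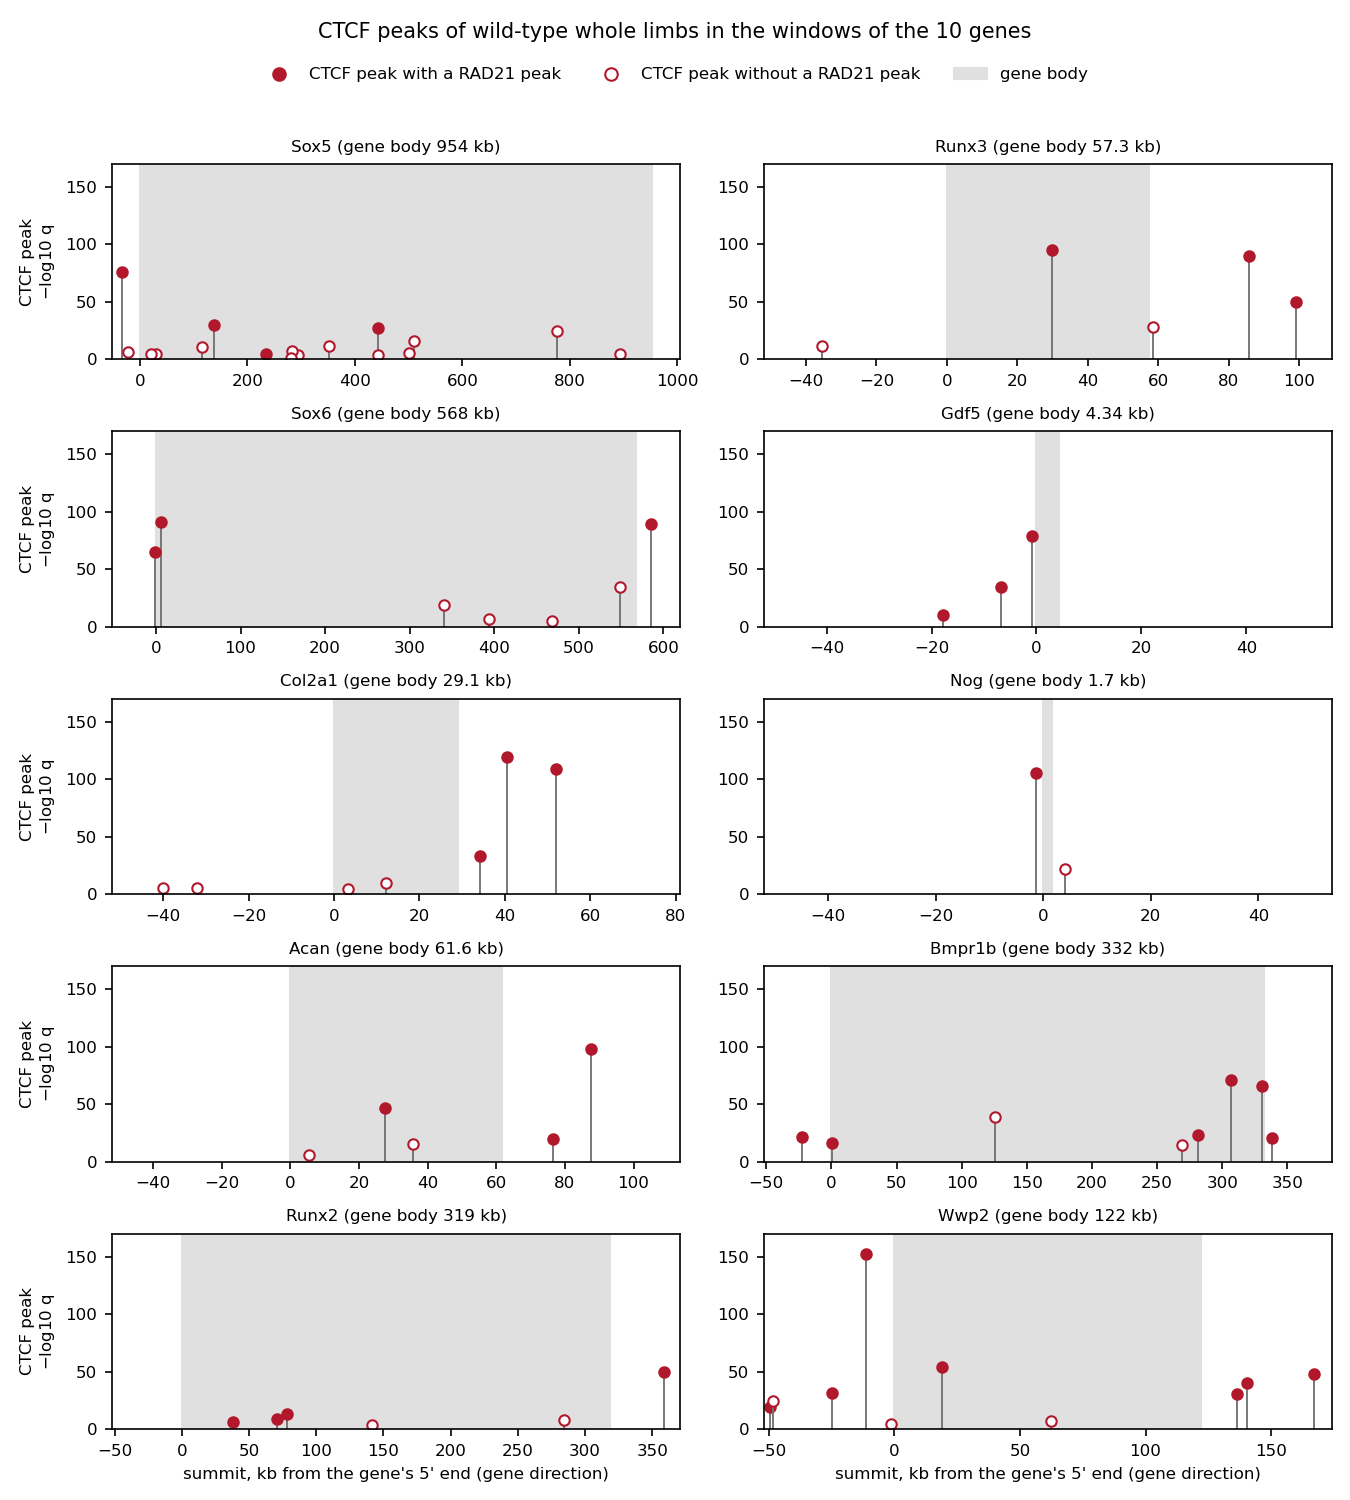
CTCF peaks of wild-type whole limbs (1 library) by distance from the gene's 5′ end in kb, in the direction of the gene, with the peak's −log10 q as height, for each of the 10 genes. Filled points overlap a RAD21 peak of wild-type whole limbs and open points do not; the tallest point lies inside the shaded body at Sox6, Runx3 and Bmpr1b and outside it at the other 7 genes.

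Sox5 (ENSMUSG00000041540.16, chr6:143828425-144781977, minus strand) encodes a transcription factor of the SoxD group that acts with Sox9 on cartilage genes, and its 954 kb body is the longest of the 10. The strongest site of the window lay outside that body, 33.1 kb upstream at chr6:144814832-144815229. Site 17 had a −log10 q of 149 in del(8-13)d11lac, 41.3 in del(1-13)d9lac, 80.3 in del(attP-Rel5)d9lac and 8.64 in del(8-13)rXII limbs, against 75.7 in wild-type whole limbs, 171 in wild-type distal forelimb and 175 in wild-type proximal forelimb. It was called in all 7 CTCF lists and sat between percentiles 58.7 and 92.5 of their peaks. It also held the strongest RAD21 peak of the window, with a −log10 q of 34.2 in del(8-13)rXII limbs, against 90.5 in wild-type limbs, and peaks in distal RAD21 and SMC1.

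Inside Sox5 the sites were numerous and weak. The window held 28 CTCF peaks in del(8-13)d11lac, 16 in del(1-13)d9lac, 14 in del(attP-Rel5)d9lac and 11 in del(8-13)rXII, against 17 in wild-type whole limbs, 30 in wild-type distal forelimb and 34 in wild-type proximal forelimb, and 3 RAD21 peaks in del(8-13)rXII limbs, against 8 in wild-type whole limbs and 2 in wild-type distal forelimb, and 5 SMC1 peaks in wild-type distal forelimb. The 15 whole-limb CTCF peaks in the body were all intronic, and 13 of them lay upstream of the start of the principal transcript. Sites 12 and 5 were the strongest of the body, at 29.7 and 27.5 in wild-type whole limbs. Site 5, at chr6:144339067-144339387, was the single intronic site of Sox5 with peaks in all 4 cohesin lists.

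At Sox5 4 of 17 CTCF sites overlapped RAD21 in wild-type whole limbs, where their strength gives 5.88. Its body held 0.734 RAD21 peaks per 100 kb in that list, above the 0.352 of Sox6. That lies within the quartiles of the 567 genes of at least 300 kb, 0.620 and 1.40. Sites 2 and 3, with −log10 q of 24.6 and 16.2 and peaks in all 7 CTCF lists, had no RAD21 peak in any list. Sites 5 and 6 lie close together and fall in the same peak of the del(8-13)d11lac list.

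Sox6 (ENSMUSG00000051910.13, chr7:115470872-116038796, minus strand), the partner of Sox5 in chondrocytes, had its strong sites at its ends. Site 6, at chr7:116032930-116033277, lay 5703 bp inside the gene's 5′ end and 509 bp from the start of a transcript annotated as a retained intron. Its −log10 q was 169 in del(8-13)d11lac, 63.3 in del(1-13)d9lac, 99.3 in del(attP-Rel5)d9lac and 17.5 in del(8-13)rXII limbs, against 91.1 in wild-type whole limbs, 169 in wild-type distal forelimb and 165 in wild-type proximal forelimb. Site 7, 1602 bp upstream at chr7:116040218-116040594 and within the neighbouring gene 1110004F10Rik, carried the strongest RAD21 peak of the window, with a −log10 q of 32.2 in del(8-13)rXII limbs, against 115 in wild-type limbs. Site 1, in the downstream flank at chr7:115453325-115453723, had a CTCF −log10 q of 89.4 in wild-type whole limbs. These 3 sites had peaks in all 7 CTCF and all 4 cohesin lists, and each sat at or above percentile 84.7 of every CTCF list.

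Between them, the 568 kb body of Sox6 held 4 further whole-limb CTCF sites, none with RAD21. Site 2 lies in a coding exon, at chr7:115489636-115489979, and was called in all 7 CTCF lists with 34.6 in wild-type whole limbs and, among the cohesin lists, in SMC1 alone, with 4.88. Over the libraries, the window held 9 CTCF peaks in del(8-13)d11lac, 5 in del(1-13)d9lac, 6 in del(attP-Rel5)d9lac and 5 in del(8-13)rXII, against 7 in wild-type whole limbs, 12 in wild-type distal forelimb and 9 in wild-type proximal forelimb. It held 4 RAD21 peaks in del(8-13)rXII limbs, against 5 in wild-type whole limbs and 3 in wild-type distal forelimb, and 6 SMC1 peaks in wild-type distal forelimb. Sox6 was the single gene of the 10 with more CTCF peaks in the distal list than in the proximal list, 12 against 9.

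Runx2 (ENSMUSG00000039153.16, chr17:44495987-44814797, minus strand), required for bone formation and chondrocyte maturation, is transcribed from a distal and a proximal promoter, known as P1 and P2. Site 4, at chr17:44736288-44736607, lay 223 bp inside the start of a protein-coding transcript, in an untranslated exon 78.4 kb from the gene's 5′ end. It had a −log10 q of 25.0 in del(8-13)d11lac, 9.95 in del(1-13)d9lac limbs and 19.6 in del(attP-Rel5)d9lac limbs, against 13.0 in wild-type whole limbs, 58.5 in wild-type distal forelimb and 53.6 in wild-type proximal forelimb. No peak was called there in the del(8-13)rXII CTCF list, from forelimbs. The whole-limb RAD21 list of that allele had a weak one, at 5.38 and percentile 13.8, against 21.3 in wild-type whole limbs.

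The strongest site of Runx2 lay in its downstream flank, at chr17:44455704-44456063. There CTCF reached a −log10 q of 149.8 in del(8-13)d11lac, 43.6 in del(1-13)d9lac, 44.5 in del(attP-Rel5)d9lac and 15.9 in del(8-13)rXII limbs, against 49.8 in wild-type whole limbs, 151 in wild-type distal forelimb and 145 in wild-type proximal forelimb. The RAD21 peak on it, the strongest of the window, had 72.7 in del(8-13)rXII limbs, against 117 in wild-type limbs. The 319 kb body held 5 weak CTCF sites, all at or under 13.0, of which 3 had RAD21. Peak counts were 8 CTCF peaks in del(8-13)d11lac, 6 in del(1-13)d9lac, 6 in del(attP-Rel5)d9lac and 4 in del(8-13)rXII, against 6 in wild-type whole limbs, 7 in wild-type distal forelimb and 8 in wild-type proximal forelimb. For cohesin they were 2 RAD21 peaks in del(8-13)rXII limbs, against 7 in wild-type whole limbs and 1 in wild-type distal forelimb, and 3 SMC1 peaks in wild-type distal forelimb. Here 4 of 6 CTCF sites carried RAD21 in wild-type whole limbs, where their strength gives 2.16.

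Runx3 (ENSMUSG00000070691.10, chr4:135120652-135177990, plus strand), a Runx factor that shares in chondrocyte maturation, had its strongest CTCF site in intron 1, at chr4:135150434-135150864, 1869 bp upstream of the start of a protein-coding transcript that begins inside the gene. CTCF there had a −log10 q of 259.9 in del(8-13)d11lac, 103 in del(1-13)d9lac, 142 in del(attP-Rel5)d9lac and 19.3 in del(8-13)rXII limbs, against 95.2 in wild-type whole limbs, 254 in wild-type distal forelimb and 247 in wild-type proximal forelimb. The site lay at or above percentile 91.8 of every CTCF list and had peaks in all 4 cohesin lists. The strongest RAD21 peak of wild-type whole limbs was at site 4 in the downstream flank, chr4:135206258-135206741, with 27.9 in del(8-13)rXII limbs, against 128 in wild-type limbs. In del(8-13)rXII RAD21 was stronger at site 2, with 35.9.

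All 5 whole-limb CTCF sites of Runx3 were consensus sites and had a peak in each of the 4 alleles. Site 5, in the body of Clic4, also carried all 4 cohesin peaks. Counts over the libraries were 8 CTCF peaks in del(8-13)d11lac, 6 in del(1-13)d9lac, 6 in del(attP-Rel5)d9lac and 8 in del(8-13)rXII, against 5 in wild-type whole limbs, 7 in wild-type distal forelimb and 9 in wild-type proximal forelimb. Cohesin counts were 3 RAD21 peaks in del(8-13)rXII limbs, against 3 in wild-type whole limbs and 4 in wild-type distal forelimb, and 4 SMC1 peaks in wild-type distal forelimb.

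Col2a1 (ENSMUSG00000022483.17, chr15:97975602-98004695, minus strand), which encodes type II collagen, the main collagen of cartilage, had its strong CTCF sites past its 3′ end. Site 2, at chr15:97963881-97964254, had a −log10 q of 234 in del(8-13)d11lac, 123 in del(1-13)d9lac, 156 in del(attP-Rel5)d9lac and 27.5 in del(8-13)rXII limbs, against 119 in wild-type whole limbs, 268 in wild-type distal forelimb and 282 in wild-type proximal forelimb. Site 1, at chr15:97952389-97952831, had 109 in wild-type whole limbs, and site 3, nearer the gene, had 33.6. All 3 motifs lie on the minus strand, the strand of the gene.

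These neighbours differed in cohesin. Site 1 held the strongest RAD21 peak of the window, with a −log10 q of 45.0 in del(8-13)rXII limbs, against 116 in wild-type limbs, and a peak in each other cohesin list. At site 2, with more CTCF in wild-type whole limbs, RAD21 had 22.3 in wild-type whole limbs and 5.35 in wild-type distal forelimb, and no peak was called in the del(8-13)rXII RAD21 list or the SMC1 list. It was the second strongest consensus site of the 10 windows in wild-type whole limbs and the single one of the 20 strongest without a RAD21 peak in del(8-13)rXII.

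Inside the 29.1 kb body and upstream, Col2a1 had 4 weak CTCF sites, from 4.91 to 9.63 in wild-type whole limbs, none with RAD21. Site 5, at chr15:98001320-98001509, lay 478 bp inside the start of a processed transcript and 3286 bp from the gene's 5′ end. Site 7, upstream, lies in the body of Senp1. Counts were 11 CTCF peaks in del(8-13)d11lac, 5 in del(1-13)d9lac, 5 in del(attP-Rel5)d9lac and 4 in del(8-13)rXII, against 7 in wild-type whole limbs, 8 in wild-type distal forelimb and 8 in wild-type proximal forelimb. Cohesin counts were 1 RAD21 peak in del(8-13)rXII limbs, against 3 in wild-type whole limbs and 2 in wild-type distal forelimb, and 1 SMC1 peak in wild-type distal forelimb.

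Acan (ENSMUSG00000030607.7, chr7:79053483-79115099, plus strand), which encodes the cartilage proteoglycan aggrecan, had its strongest site in the flank, within the body of Mfge8 at chr7:79140854-79141312. CTCF there had a −log10 q of 231 in del(8-13)d11lac, 82.8 in del(1-13)d9lac, 108 in del(attP-Rel5)d9lac and 11.4 in del(8-13)rXII limbs, against 98.4 in wild-type whole limbs, 216 in wild-type distal forelimb and 243 in wild-type proximal forelimb. The RAD21 peak there was the strongest of the window in whole limbs, with 20.1 in del(8-13)rXII limbs, against 67.5 in wild-type limbs, while in distal forelimb site 2 was stronger, with 17.5 against 16.3. The other strong site, site 2 in intron 1 at chr7:79080784-79081137, was the strongest in the del(8-13)rXII CTCF list, with 19.1, and had a wild-type whole-limb CTCF −log10 q of 46.8 and all 4 cohesin peaks. Site 4, in the body of Hapln3, a gene for a hyaluronan and proteoglycan link protein, had 19.7.

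The counts at Acan were 6 CTCF peaks in del(8-13)d11lac, 6 in del(1-13)d9lac, 4 in del(attP-Rel5)d9lac and 4 in del(8-13)rXII, against 5 in wild-type whole limbs, 6 in wild-type distal forelimb and 7 in wild-type proximal forelimb. For cohesin they were 2 RAD21 peaks in del(8-13)rXII limbs, against 3 in wild-type whole limbs and 2 in wild-type distal forelimb, and 3 SMC1 peaks in wild-type distal forelimb. No CTCF peak of wild-type whole limbs lay within 1 kb of a transcript start of the gene.

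Gdf5 (ENSMUSG00000038259.4, chr2:155941023-155945367, minus strand), a BMP-family ligand of the joint interzone, had its strongest CTCF site at its promoter, 901 bp upstream of its single annotated transcript start, at chr2:155946090-155946467. CTCF there had a −log10 q of 207 in del(8-13)d11lac, 66.4 in del(1-13)d9lac, 94.1 in del(attP-Rel5)d9lac and 12.6 in del(8-13)rXII limbs, against 78.8 in wild-type whole limbs, 241 in wild-type distal forelimb and 237 in wild-type proximal forelimb. The RAD21 peak on it was the strongest of the window, with 47.2 in del(8-13)rXII limbs, against 127 in wild-type limbs. All 3 whole-limb CTCF sites of the window lay upstream of the gene.

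Site 2 of Gdf5, at chr2:155952038-155952365, had a CTCF −log10 q of 34.9, and site 3, in the body of Cep250, had 10.5. All 3 carried RAD21 and were called in all 7 CTCF lists. Counts were 4 CTCF peaks in del(8-13)d11lac, 3 in del(1-13)d9lac, 3 in del(attP-Rel5)d9lac and 4 in del(8-13)rXII, against 3 in wild-type whole limbs, 5 in wild-type distal forelimb and 8 in wild-type proximal forelimb. Cohesin counts were 3 RAD21 peaks in del(8-13)rXII limbs, against 4 in wild-type whole limbs and 3 in wild-type distal forelimb, and 2 SMC1 peaks in wild-type distal forelimb. The 3 proximal peaks of Gdf5 that no distal peak overlapped had −log10 q of 2.18, 5.23 and 7.49 and were in no other CTCF list.

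Nog (ENSMUSG00000048616.4, chr11:89300638-89302332, minus strand) encodes noggin, a secreted inhibitor of BMPs, and its 1.70 kb body held no CTCF peak. Site 2, 1316 bp upstream at chr11:89303404-89303845, had a CTCF −log10 q of 249 in del(8-13)d11lac, 115 in del(1-13)d9lac, 131 in del(attP-Rel5)d9lac and 32.4 in del(8-13)rXII limbs, against 105 in wild-type whole limbs, 252 in wild-type distal forelimb and 252 in wild-type proximal forelimb. It lay at or above percentile 97.6 of every CTCF list. Its RAD21 peak, the strongest of the window, had 29.0 in del(8-13)rXII limbs, against 82.2 in wild-type limbs. Site 1, downstream at chr11:89298228-89298520, was weaker, with 22.1, and had no peak in the del(8-13)rXII CTCF list. Counts were 4 CTCF peaks in del(8-13)d11lac, 3 in del(1-13)d9lac, 2 in del(attP-Rel5)d9lac and 1 in del(8-13)rXII, against 2 in wild-type whole limbs, 3 in wild-type distal forelimb and 5 in wild-type proximal forelimb. Cohesin counts were 1 RAD21 peak in del(8-13)rXII limbs, against 2 in wild-type whole limbs and 1 in wild-type distal forelimb, and 2 SMC1 peaks in wild-type distal forelimb.

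Bmpr1b (ENSMUSG00000052430.15, chr3:141837136-142169425, minus strand), a type I receptor for Gdf5 and other BMPs, had more sites with all 4 cohesin peaks than any other of the 10 genes. Of its 8 whole-limb CTCF sites 6 carried RAD21, where their strength gives 5.27, and the same 6 had peaks in all 4 cohesin lists. The strongest CTCF site was site 3, at chr3:141862803-141863179, with its wild-type whole-limb summit in intron 7. In each RAD21 list the summit there fell in an exon. CTCF at site 3 had a −log10 q of 146 in del(8-13)d11lac, 33.9 in del(1-13)d9lac, 61.8 in del(attP-Rel5)d9lac and 22.5 in del(8-13)rXII limbs, against 71.3 in wild-type whole limbs, 188 in wild-type distal forelimb and 173 in wild-type proximal forelimb. Sites 6 and 2 were stronger in del(8-13)d11lac, with 176 and 156, and in del(1-13)d9lac, with 40.3 and 37.7. Site 2, in an untranslated exon near the 3′ end at chr3:141838847-141839267, had 66.2 and the strongest wild-type whole-limb RAD21 peak of the 10 windows, with 54.2 in del(8-13)rXII limbs, against 137 in wild-type limbs. In the del(8-13)rXII RAD21 list Runx2 site 1 and Bmpr1b site 8 were stronger, and in distal forelimb Wwp2 site 10 was, with 62.9 against 60.8.

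At the 5′ end of Bmpr1b, site 7 lay 127 bp inside the gene in an untranslated exon, at chr3:142169106-142169489. Its CTCF −log10 q was 45.0 in del(8-13)d11lac, 12.3 in del(1-13)d9lac limbs and 26.0 in del(attP-Rel5)d9lac limbs, against 16.3 in wild-type whole limbs, 42.5 in wild-type distal forelimb and 54.5 in wild-type proximal forelimb. The del(8-13)rXII CTCF list had no peak there, while RAD21 had 3.08 in del(8-13)rXII limbs, against 22.6 in wild-type limbs. The promoter site of Runx2 gave the same 2 readings, no CTCF peak and a RAD21 peak in this allele. The 2 lists differ in tissue and assay, forelimb ChIPmentation for CTCF and whole limbs for RAD21. Both RAD21 peaks were weak, at percentile 3.29 of the list at Bmpr1b and 13.8 at Runx2.

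A pair of Bmpr1b sites showed unequal CTCF and cohesin. Site 6, in an intron at chr3:142043448-142043848, had a CTCF −log10 q of 39.1 in wild-type whole limbs and a peak in all 7 CTCF lists, but none in any cohesin list. It is the strongest whole-limb CTCF site of the 10 windows without RAD21. Site 8, upstream at chr3:142191635-142192009, had a CTCF −log10 q of 21.5 in wild-type whole limbs, and RAD21 of 69.4 in del(8-13)rXII limbs, against 53.8 in wild-type limbs. Its RAD21 peak sat at percentile 97.5 of the del(8-13)rXII list and 79.5 of the wild-type whole-limb list. Its CTCF peak sat at percentile 85.0 of the del(8-13)rXII forelimb list and 56.4 of the wild-type whole-limb list. No motif match was found at either site. Site 1 lies in the body of Unc5c. The counts were 10 CTCF peaks in del(8-13)d11lac, 9 in del(1-13)d9lac, 9 in del(attP-Rel5)d9lac and 8 in del(8-13)rXII, against 8 in wild-type whole limbs, 10 in wild-type distal forelimb and 13 in wild-type proximal forelimb. Cohesin counts were 6 RAD21 peaks in del(8-13)rXII limbs, against 7 in wild-type whole limbs and 6 in wild-type distal forelimb, and 6 SMC1 peaks in wild-type distal forelimb.

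Wwp2 (ENSMUSG00000031930.11, chr8:107436365-107558595, plus strand) encodes a ubiquitin ligase and hosts, in intron 16, the cartilage microRNA gene Mir140 at chr8:107551244-107551313. The strongest CTCF site of the 10 windows in wild-type whole limbs was its site 4, 11.2 kb upstream at chr8:107424941-107425325. CTCF there had a −log10 q of 275 in del(8-13)d11lac, 118 in del(1-13)d9lac, 156 in del(attP-Rel5)d9lac and 21.5 in del(8-13)rXII limbs, against 152 in wild-type whole limbs, 273 in wild-type distal forelimb and 262 in wild-type proximal forelimb. Col2a1 site 2 was stronger in del(1-13)d9lac, del(8-13)rXII and wild-type proximal forelimb, and in del(8-13)rXII site 6 was the strongest of Wwp2, with 22.1. Site 4 lay at or above percentile 94.6 of every CTCF list, with RAD21 of 38.3 in del(8-13)rXII limbs, against 91.5 in wild-type limbs. The strongest RAD21 peak of the window lay at site 10, chr8:107603050-107603408 in the downstream flank, with 45.4 in del(8-13)rXII limbs, against 125 in wild-type limbs.

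The CTCF sites of Wwp2 sat mostly in its flanks, 5 upstream and 3 downstream, with site 6 and the weak site 7 in the 122 kb body. Site 6, in an intron at chr8:107455286-107455687, had 53.8. The nearest wild-type whole-limb CTCF sites to Mir140 were 52.6 kb before it and 21.4 kb after it. A weak peak lay nearer in both forelimb lists, with its summit 2.40 kb past Mir140 and a −log10 q of 3.89 in wild-type distal forelimb, and 2.41 kb past it with 3.20 in wild-type proximal forelimb. The counts were 13 CTCF peaks in del(8-13)d11lac, 10 in del(1-13)d9lac, 10 in del(attP-Rel5)d9lac and 9 in del(8-13)rXII, against 10 in wild-type whole limbs, 14 in wild-type distal forelimb and 14 in wild-type proximal forelimb. Cohesin counts were 4 RAD21 peaks in del(8-13)rXII limbs, against 8 in wild-type whole limbs and 4 in wild-type distal forelimb, and 7 SMC1 peaks in wild-type distal forelimb.

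**Figure D4:**
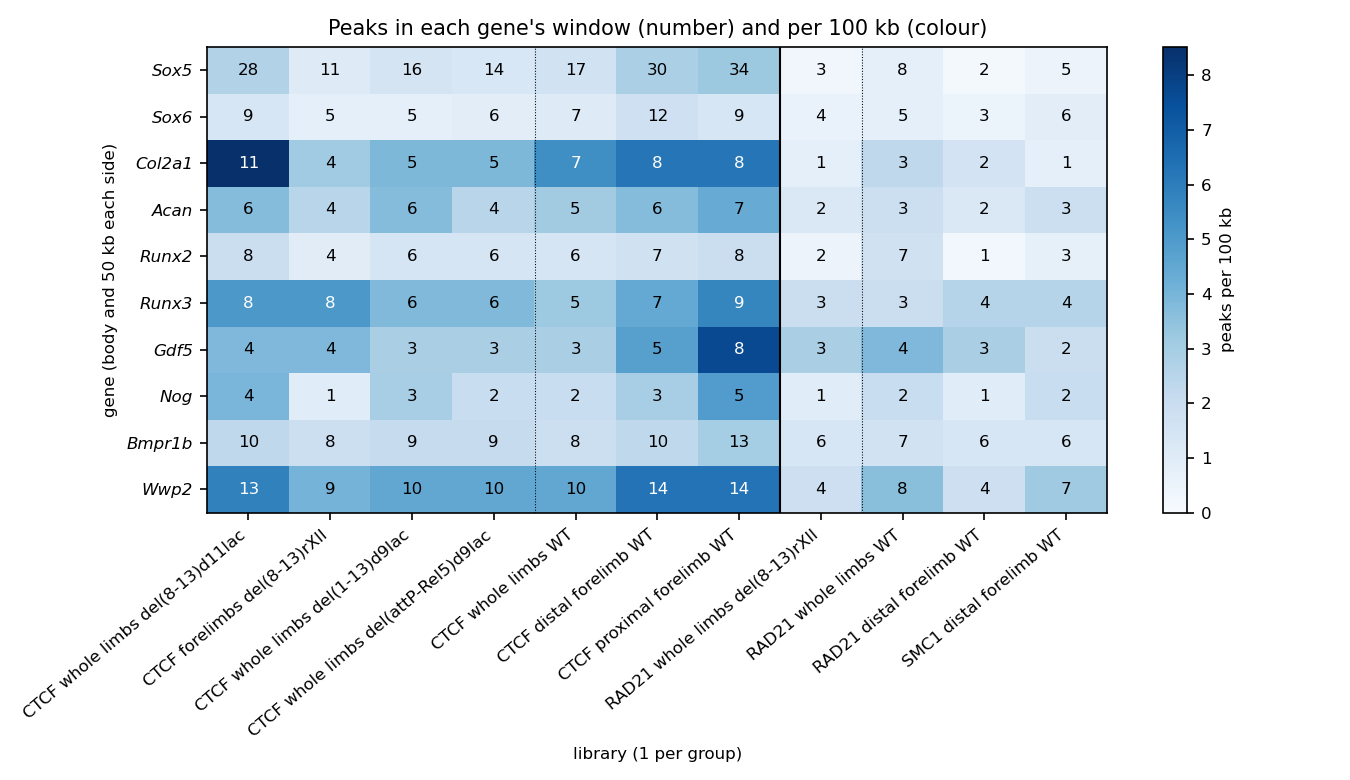
Peaks in the window of each gene (printed number) and per 100 kb of window (colour) in each of the 11 libraries, with mutants left of wild type within CTCF and RAD21. Col2a1, Gdf5 and Wwp2 have the densest CTCF cells, and at Sox5 the del(8-13)d11lac, distal and proximal forelimb lists hold 28, 30 and 34 CTCF peaks, where the other CTCF lists hold 11 to 17.

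The 4 HoxD alleles kept the CTCF sites of these genes about as often as those of the genome. A consensus site was kept where a mutant peak overlapped it. In del(8-13)d11lac 66 of 66, or 100% with a Wilson 95% interval of 94.5 to 100%, were kept, against 98.7% of all 39477 consensus sites. In del(attP-Rel5)d9lac the count was 56 of 66, or 84.8% with a Wilson 95% interval of 74.3 to 91.6%, against 90.4%. In del(1-13)d9lac it was 59 of 66, or 89.4% with a Wilson 95% interval of 79.7 to 94.8%, against 87.2%. In del(8-13)rXII it was 51 of 66, or 77.3% with a Wilson 95% interval of 65.8 to 85.7%, against 77.0%. Each genome share lies within the interval of the 10 genes. Sites of like strength over the genome give 65.2, 59.6, 57.6 and 51.2 kept sites in the same order of alleles.

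Most sites missing from an allele were weak in wild-type whole limbs. The 32 strongest consensus sites, down to a −log10 q of 23.0, all had peaks in the 4 alleles, where 98.9% of all consensus sites that strong do. In total 48 of 66 were kept in all 4, with a median −log10 q of 32.6, against 72.5% of all consensus sites. In the 3 alleles other than del(8-13)rXII 55 of 66 were kept, against 83.4% of all. By gene, all consensus sites of Runx3 and Gdf5 were kept in every allele, and 8 of 14 of Sox5. The strongest site missing from any allele was Nog site 1, at 22.1 in wild-type whole limbs, absent from the del(8-13)rXII CTCF list alone. Acan site 4, at 19.7, was also absent from that list alone. Both lay above the median of the wild-type whole-limb list, 17.0.

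**Figure D5:**
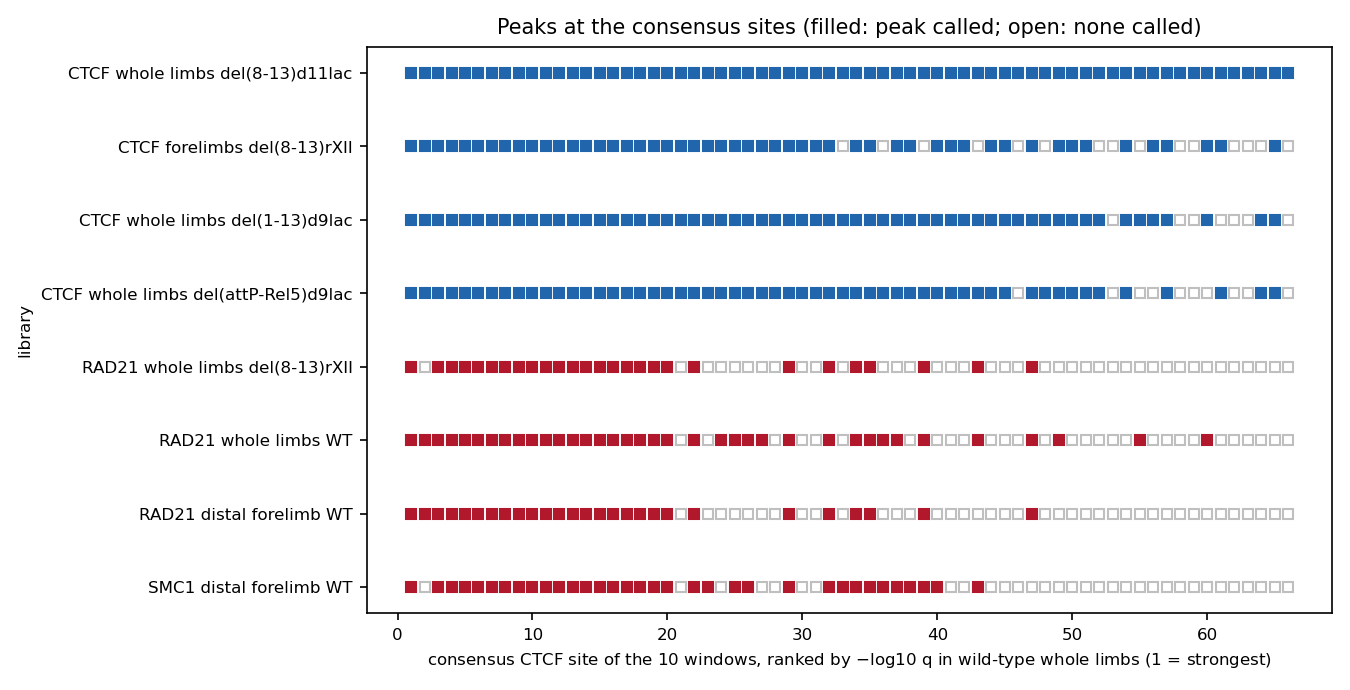
The 66 consensus CTCF sites of the 10 windows, ranked by −log10 q in wild-type whole limbs, with a filled square where each list (rows, 1 library each) has an overlapping peak. The first 32 sites are filled in all 4 alleles and the first 20 in wild-type whole-limb RAD21; open squares gather at the weak end.

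A total of 8 consensus sites lacked a peak in 2 or more alleles. Those absent from every allele but del(8-13)d11lac were Sox5 site 1 at chr6:143889000-143889189 and site 10 at chr6:144501570-144501759, Sox6 site 4 at chr7:115645311-115645575, Col2a1 site 5 at chr15:98001320-98001509 and site 6 at chr15:98036683-98036930, and Wwp2 site 5 at chr8:107434740-107434929. Their −log10 q in wild-type whole limbs ran between 1.50 and 6.64. Sox5 site 13 at chr6:144666626-144666949 and Runx2 site 6 at chr17:44776873-44777082, with 10.9 and 6.41, were absent from del(8-13)rXII and del(attP-Rel5)d9lac. All 8 had a peak in del(8-13)d11lac, the longest mutant list.

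Peaks that overlapped no peak of any wild-type CTCF list, the CD1 forelimb lists included, were weak. In del(8-13)d11lac limbs these were 11 of 101 CTCF peaks, or 10.9%, where 7.08% of all its peaks are. In del(attP-Rel5)d9lac the count was 0 of 65, which allows up to 4.62%, where 2.94% of all do. It was 2 of 69 in del(1-13)d9lac, where 5.19% do, and 2 of 58 in del(8-13)rXII, where 4.62% do. The highest −log10 q among them was 7.86. A single one was called in 2 alleles, in an intron of Sox5 at chr6:144047693-144047942, with 4.48 in del(8-13)d11lac and 2.22 in del(1-13)d9lac. Against wild-type whole limbs alone the count would differ. A region in intron 1 of Runx3, chr4:135126301-135126817, had peaks in all 4 alleles and in both CD1 forelimb lists, but none in wild-type whole limbs.

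RAD21 was followed in del(8-13)rXII whole limbs. Among RAD21 peaks of wild-type whole limbs, 28 of 50, or 56.0% with a Wilson 95% interval of 42.3 to 68.8%, were kept, against 45.2% of all, and sites of like strength give 27.9. The mutant list is shorter, 15927 peaks against 33707. The 28 kept peaks had a median −log10 q of 68.3 and the 22 others of 6.48, with 22.3, at Col2a1 site 2, as the highest. A CTCF peak lay on 27 of the 28 kept peaks and on 10 of the 22 others. This split was not counted over the genome or at like strength, so it cannot be called particular to these genes. Just 1 of 29 mutant RAD21 peaks overlapped no wild-type RAD21 or SMC1 peak, where 3.51% of all do.

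RAD21 peaks without a CTCF peak were 13 of 50, or 26.0% with a Wilson 95% interval of 15.9 to 39.6%, of the whole-limb RAD21 peaks, against 33.6% over the genome. They were weak, with a median −log10 q of 2.85. The 5 strongest were at chr17:44540821-44541152 in an intron of Runx2 with 11.4, chr6:144444585-144444917 in an intron of Sox5 with 9.36, chr3:142168588-142168869 near the start of Bmpr1b with 7.06, chr6:144509786-144510026 in an intron of Sox5 with 4.99 and chr17:44734588-44734878 at a transcript start of Runx2 with 4.02. The strongest overlapped a CTCF peak in 4 other CTCF lists, the remaining 4 in none. The last of them lay within 1 kb of a protein-coding transcript start, and an SMC1 peak with 3.62 overlapped it in distal forelimb.

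The distal and proximal forelimb lists, made from the future digits and from the future upper arm and forearm, shared most CTCF peaks of these genes. Among distal peaks, 90 of 102, or 88.2% with a Wilson 95% interval of 80.6 to 93.1%, overlapped a proximal peak, against 82.6% of all. Of the proximal peaks 90 of 115 overlapped a distal peak, or 78.3%, against 77.8%. The 12 distal peaks and 25 proximal peaks without a partner had median −log10 q of 4.94 and 5.23, and 9 and 19 of them were in no other CTCF list. The share of unpartnered peaks in no other list was not counted over the genome, so these counts cannot be called high or low. The strongest were 13.5 in distal forelimb, in an intron of Sox5, and 10.7 in proximal forelimb, downstream of Wwp2. A proximal peak with 10.3, singled out after its value was seen, lay within 1 kb of the start of the principal Sox5 transcript, where the distal list had none, and SMC1 of distal forelimb had a peak there with 8.01.

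In distal forelimb the cohesin lists held 16498 RAD21 and 23185 SMC1 peaks, beside 69495 CTCF peaks. RAD21 overlapped 27 of 102, or 26.5% with a Wilson 95% interval of 18.9 to 35.8%, of distal CTCF peaks, against 22.8% of all, and SMC1 34 of 102, or 33.3%, against 31.0%. The 2 subunits marked the same places: 25 of 28 distal RAD21 peaks overlapped an SMC1 peak, where 87.9% of all do. SMC1 had 14 of 39 peaks without RAD21, where 37.5% of all lack it, with a median −log10 q of 4.09 against 23.0 at the 25 with it. On a distal CTCF peak lay 34 of its 39 peaks, where 94.0% of all do.

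Over all lists, 48 of the 141 regions with CTCF were called in all 7 CTCF lists and 43 in a single list, where 29.5% and 33.5% of the 96946 such regions of the genome were. Of the 48, 24 also had a peak in all 4 cohesin lists and 13 in none, where 41.4% and 22.9% of all regions called in the 7 lists do. Bmpr1b held 5 of the 24, Wwp2 4, Sox6 and Runx3 3 each, Sox5, Acan and Gdf5 2 each, and Col2a1, Runx2 and Nog 1 each. Sox5 held the most regions called in all 7 CTCF lists, 8 together with Wwp2, but 4 of its 8 had no cohesin peak in any list, against 1 of 8 at Wwp2. Introns, which make up 2324 of the 3449 kb of the windows, held 17 of the 48 shared regions and 26 of the 43 called in a single list. The share of such regions in introns over the genome was not counted.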

How the data were processed

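Of 13 samples, 11 peak lists of CTCF, RAD21 and SMC1 were used, and the 2 H3K27ac samples were not analysed here. Reads were processed with cutadapt, Bowtie2 and MACS2 on build mm10, per the submitters' processing notes, in versions not given in the sources used here. The deposited narrowPeak lists give each summit a fold enrichment (a ratio), a −log10 p and a −log10 q, computed by the authors, and a score that equals 10 times the −log10 q as a whole number, as deposited. Each group has 1 list, so no test between groups was run and no p-value of such a test is given.

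List entries that share a region were joined and given the values of the strongest, on chromosomes 1 to 19, X and Y, with 1-based coordinates. Peaks were placed by their summits as promoter (within 1 kb of any transcript start of the gene), flank, exon or intron in GENCODE M21, and shared peaks overlapped by at least 1 bp. Peaks given by strength use shares in 20 equally filled bins of −log10 q over the whole list. Wilson 95% intervals cover counting error, and a count of 0 was read as allowing 3. A 19-base motif matrix was learned from the 2000 strongest whole-limb summits and scanned on both strands within 50 bp of each summit. Overlaps, merging and motif search were tested on simulated data. Python 3.11.15, numpy 2.4.6, pandas 2.3.3, scipy 1.17.1 and matplotlib 3.10.9 were used.

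Named sites are the strongest whole-limb CTCF and RAD21 site of each gene, every promoter site, consensus sites missing in 2 or more alleles and the 5 strongest RAD21 peaks without CTCF. Other sites, the word AGAAGAGGG and the soft-masking were chosen after their values or sequences were seen. The members and the list of 38 other cartilage genes were chosen with earlier results of these data known. Alternatives were a −log10 q of at least 10, the 15000 strongest peaks of each list, 50% coverage, summits within 200 bp, unmerged rows, flanks of 10 or 100 kb, other promoter widths and a motif window of 100 bp.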

Additional observations from a re-analysis of the deposited data

How the results depend on the processing

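Of 80 values under alternatives 65 moved by less than their error and 15 moved by more. Where each list was limited to peaks at or above a −log10 q of 10, a level that removes more of the del(8-13)rXII CTCF list than of the others, the consensus sites kept were 97.9% in del(attP-Rel5)d9lac, against 93.6% of all, and 40.4% in del(8-13)rXII, against 44.1%. RAD21 sites kept were then 74.2%, against 51.8% of all, and RAD21 peaks without CTCF were 3.23%, against 14.0%. With the 15000 strongest peaks of each list, 26 CTCF sites and 24 consensus sites remained in the windows. Of these 95.8% were kept in del(1-13)d9lac, against 93.6% of all, 95.8% in del(attP-Rel5)d9lac, against 95.2%, and 91.7% in del(8-13)rXII, against 84.9%, with RAD21 kept at 89.3%, against 87.6%. Distal peaks with a proximal peak were then 96.0%, against 92.6% of all, and CTCF peaks with RAD21 were 84.0% in distal forelimb, against 68.9%, and 84.6% in whole limbs, against 67.3%. Promoter CTCF sites numbered 10 within 2.5 kb of a transcript start and 2 at the gene's 5′ end. The cause of these moves was not tested. The difference between the 10 genes and the whole list changed sign in 11 of 63 shares, so its direction is not stable. Shares with wider gaps changed sign too. Distal peaks with a proximal peak were 88.2% against 82.6% of all, but 90.9% against 91.4% at a −log10 q of at least 10. Sites kept in del(attP-Rel5)d9lac were 84.8% against 90.4%, but lay above the share of all at that level. With flanks of 10 kb, whole-limb CTCF peaks with RAD21 were 41.7% against 51.5% of all, distal ones 19.7% against 22.8%, and sites kept in del(8-13)rXII 70.5% against 77.0%. The widest gap with these flanks was in del(attP-Rel5)d9lac, where 35 of 44 consensus sites, or 79.5%, were kept, against 90.4% of all. The sign of the difference was the same under every alternative for RAD21 sites kept in del(8-13)rXII and for RAD21 peaks without CTCF, but its size was not. RAD21 sites kept were 89.3% against 87.6% with the 15000 strongest peaks. RAD21 peaks without CTCF were 33.3% against 33.6% with flanks of 10 kb. No paired analysis was possible because each group had 1 library. Unknown depth limits every list: a missing peak may be a site below the calling level, and most sites missing from an allele were weak in wild type.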
